A study of Mus musculus with 180 samples.

Results

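The 5 genes described here encode RNA-binding proteins that shorten the life of inflammatory mRNAs, namely *Zfp36*, *Zfp36l1*, *Zfp36l2*, *Zc3h12a* and *Rc3h1*. They were taken by their symbols from a table of 45070 genes, each of the 5 had 1 row, and all 5 were among the 12714 genes that entered the tests, which required a normalized value averaging 10 or more. Bone marrow-derived macrophages (BMDMs), grown in culture from wild type mouse bone marrow, were pre-treated for 1 h with DMSO or with 1 of 58 clinical kinase inhibitors (CKIs) and then received LPS, a bacterial ligand of TLR4, at 10 ng/ml for 2 h. PolyA RNA was sequenced in 180 samples. Each CKI had 3 samples, and the 6 DMSO samples formed 2 labelled sets of equal size. All groups therefore received LPS, and no unstimulated cells were part of the comparison. The CKIs were used at differing concentrations, and values of single CKIs are given side by side without tests of one CKI against another. Classes of CKIs were tested against the other CKIs, and an F test covered all conditions, with these concentrations left as they were. The classes below follow the designated targets of the CKIs, while the kinase on which the concentration of a CKI was based was for some of them another one. Samples of a condition came from independent biological replicates according to the study's methods, and p-values measure the spread between samples labelled as replicates.

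*Zfp36* encodes tristetraprolin (TTP), which binds AU-rich elements in the ends of mRNAs such as *Tnf* and brings in the enzymes that remove the polyA tail; *Zfp36l1* and *Zfp36l2* encode its relatives. In macrophages, the kinase p38 and its substrate MK2 both raise *Zfp36* expression and phosphorylate TTP, which holds it inactive while the inflammatory response builds up. *Zc3h12a* encodes Regnase-1, an endonuclease, and *Rc3h1* encodes Roquin-1, and both act on stem-loops in the mRNAs of cytokines and their regulators.

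The cells carried the markers of macrophages. All 8 macrophage markers passed the filter, and their summed normalized value in DMSO was lowest at 99709, 115888 in the median and highest at 216444, with *Lyz2* the most abundant. The neutrophil list summed to between 71 and 143 in DMSO with *Ltf* the most abundant, the T cell list to between 2 and 21 with *Cd4* the most abundant, the B cell list to at most 2, and the mast cell and basophil list to at most 1. The dendritic cell list summed to between 57 and 88, mostly *Xcr1*, and the fibroblast list to between 12 and 104, mostly *Col1a1*. *Cd79a*, *Mcpt8* and *Fcer1a* were listed at 0 in all DMSO samples. In such bulk samples, fewer cells that express a gene and less RNA per cell cannot be told apart.

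Per kilobase of transcript, *Zfp36* was by far the most abundant of the 5 genes in DMSO, with a mean normalized value of 3436 per kilobase, above 97.8% of the genes tested. *Zc3h12a* had 405 per kilobase, above 83.5% of genes, and *Zfp36l1* had 104, above 61.0%. *Rc3h1* had 27.0 per kilobase, above 34.0% of genes, and *Zfp36l2* had 5.32, above 7.89%. Within the TTP family, *Zfp36* was thus the most abundant mRNA for its length, and the low values of *Zfp36l2* carry a large counting error.

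*Zfp36* had its lowest mean under PH797804, a p38 inhibitor, followed by Afatinib and by Losmapimod, another p38 inhibitor. In the DMSO samples the normalized value of *Zfp36* (mm10, chr7:28376784-28379228, minus strand) was lowest at 3844, 5641 in the median and highest at 8441. Under PH797804 it was 2536, 1985 and 1543, and under Losmapimod 4013, 2714 and 3200. All 3 PH797804 samples lay below all 6 DMSO samples, as they did for 2.62% of all genes, while 1 Losmapimod sample lay above the lowest DMSO sample. *Zfp36* fell under PH797804 by 1.57 on the log2 scale (SE 0.21; mean 2021 ± 497, SD, n = 3, against 6064 ± 1594, SD, n = 6), with an adjusted p of 1.9e-08 by limma (Benjamini-Hochberg, adjusted within the comparison over every gene tested). PH797804 changed 1 of the 5 genes and 1.98% of all genes tested. For Losmapimod the log2 fold change was -0.85 (SE 0.21; mean 3309 ± 656, SD, n = 3), which did not pass the test (limma, adjusted p = 0.0856); without DMSO set 2 replicate 2, the lowest DMSO sample, it was -0.97 with an adjusted p of 0.0438 by limma. *Zfp36* under Losmapimod also passed without the filter on low values (limma, adjusted p = 0.0212). Losmapimod changed 0.0865% of all genes.

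The other p38 inhibitors gave values near those of DMSO. Talmapimod samples had *Zfp36* values of 6964, 3737 and 5577, and VX702 samples 4965, 5887 and 4193. Of these 6 samples, 1, the lowest Talmapimod sample, lay below the DMSO samples, and the other 5 lay within their range. The log2 fold changes were -0.16 for Talmapimod and -0.24 for VX702 (limma, adjusted p = 0.84 and 0.781), and each of the 4 p38 inhibitors had a *Zfp36* mean below that of DMSO. Talmapimod changed 0% of all genes and VX702 0.189%, so hardly any gene was called under either. As a class, the 12 p38 inhibitor samples had a *Zfp36* mean of 3943 ± 1661 (SD) against 6452 ± 1528 (SD) in the 162 samples of the other CKIs, a log2 difference of -0.80 (SE 0.09; limma, adjusted p = 3.42e-11). It was the 1 gene of the 5 called in this comparison, in which 1.47% of all genes were called. Against DMSO the class difference was -0.71 (SE 0.15; limma, adjusted p = 0.00294), again for 1 of the 5 genes against 1.59% of all genes. It did not pass with DMSO set 1 alone (log2 -0.76, limma adjusted p = 0.0522) or DMSO set 2 alone (log2 -0.65, limma adjusted p = 0.14) as the reference, or with only the compared conditions in the fit (limma adjusted p = 0.115). Without PH797804 the difference from DMSO was -0.42 and did not pass (limma, adjusted p = 0.226), whereas that from the other CKIs was -0.51 and did (limma, adjusted p = 0.00967).

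Afatinib, an inhibitor of the EGF receptor family, was the other CKI that lowered *Zfp36*, and it lowered 3 of the 5 genes where 21.9% of all genes were called in either direction. *Zfp36* values under Afatinib were 2810, 2468 and 2628, all below the DMSO samples, as were those of 4.77% of all genes, with a log2 fold change of -1.16 (SE 0.21; limma, adjusted p = 1.55e-05). *Zfp36l1* and *Zc3h12a* fell as well under Afatinib, as described below, while *Rc3h1* and *Zfp36l2* did not pass the test.

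The highest *Zfp36* means were found under BGT226, a PI3K and mTOR inhibitor, and under Filgotinib, a JAK inhibitor. *Zfp36* values were 11323, 6930 and 10461 under BGT226, with a log2 fold change of 0.67 (limma, adjusted p = 0.00937). Under Filgotinib they were 10068, 9825 and 8149, with a log2 fold change of 0.66 (limma, adjusted p = 0.0167). Both CKIs overlapped the DMSO samples, in which the highest value was 8441. BGT226 changed 3 of the 5 genes against 30.4% of all genes, and Filgotinib 2 of 5 against 20.7%. The *Zfp36* call for BGT226 was lost without BGT226 replicate 1 (log2 0.53, limma adjusted p = 0.11) and without its replicate 3 (log2 0.59, limma adjusted p = 0.0601). That for Filgotinib was lost without Filgotinib replicate 1 (log2 0.60, limma adjusted p = 0.0946), its replicate 2 (log2 0.62, limma adjusted p = 0.0742) or DMSO set 2 replicate 2 (log2 0.54, limma adjusted p = 0.0774).

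Among the JAK inhibitors, Filgotinib and Tofacitinib had the highest *Zfp36* means. *Zfp36* was 8731, 7739 and 7500 under Tofacitinib, with a log2 fold change of 0.44 that did not pass (limma, adjusted p = 0.142). The other 4 JAK inhibitors, BMS911543, Momelotinib, Pacritinib and Ruxolitinib, had *Zfp36* means between 6080 and 6633, close to the DMSO mean of 6064. Over the 18 samples of the class, *Zfp36* was 0.25 higher on the log2 scale than under the other CKIs (SE 0.07; 7191 ± 1444 against 6173 ± 1655, SD; limma, adjusted p = 0.0221). This call was lost without Filgotinib (log2 0.17, limma adjusted p = 0.507) or Tofacitinib (log2 0.22, limma adjusted p = 0.0981) in the class, and the difference from DMSO of 0.26 did not pass (limma, adjusted p = 0.196).

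MEK and ERK inhibitors had *Zfp36* values near those of DMSO, with a mean of 6434 ± 1437 (SD, n = 15) and a log2 difference of 0.09 (limma, adjusted p = 0.723). In the PI3K and mTOR class *Zfp36* was 7628 ± 1499 (SD, n = 15), 0.35 higher than under the other CKIs on the log2 scale (SE 0.08; limma, adjusted p = 0.000208). The difference from DMSO was also 0.35 but close to the threshold (limma, adjusted p = 0.0461), and it was lost without DMSO set 1 replicate 2, DMSO set 1 replicate 3, DMSO set 2 replicate 2 or DMSO set 2 replicate 3 (limma adjusted p = 0.0794, 0.0892, 0.27 and 0.0834). It was also lost with BGT226 or Omipalisib left out of the class (limma adjusted p = 0.147 and 0.0547), and with DMSO set 1 or DMSO set 2 alone as the reference (limma adjusted p = 0.247 and 0.115). With the PI3K inhibitors AZD8186 and TG100115 added to the class it did not pass either (log2 0.28, limma adjusted p = 0.111). In the order of the 59 *Zfp36* means, DMSO stood at place 37; at the bottom, the ranges of Losmapimod and Afatinib overlapped, as did those of Afatinib and PH797804.

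**Figure D1:**
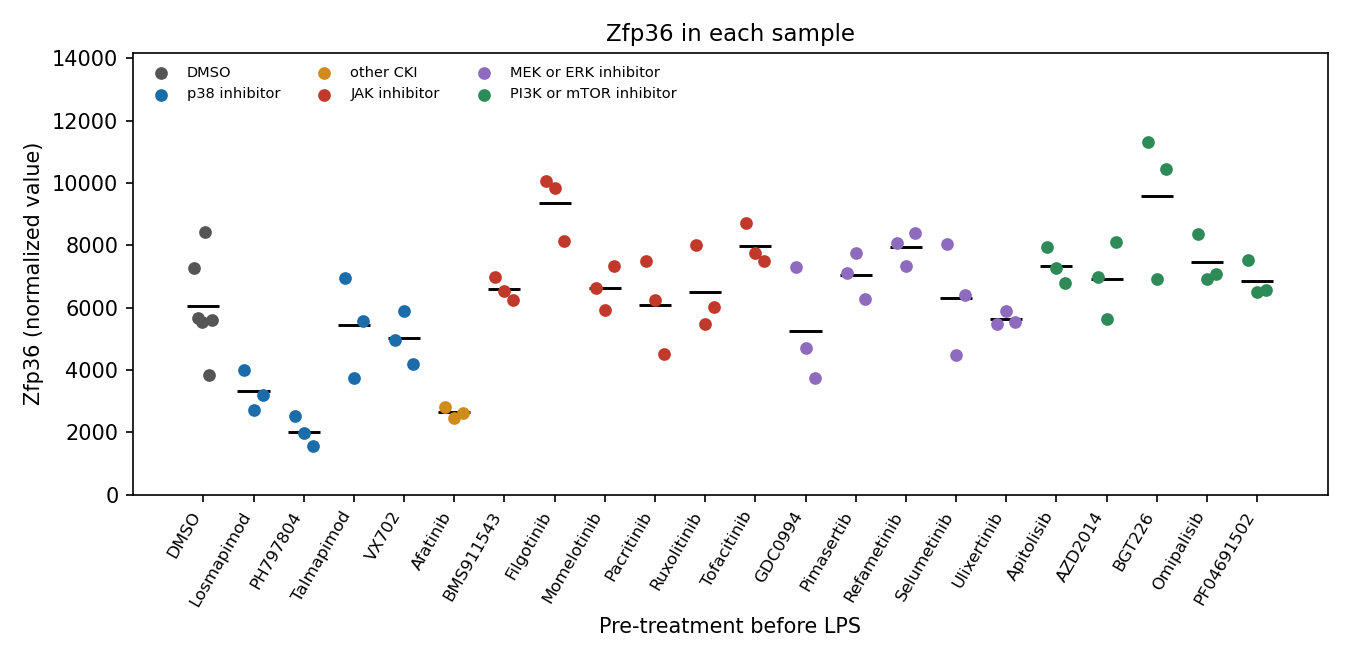
Normalized *Zfp36* value (vertical axis) of each sample in DMSO, the 4 classes of CKIs and Afatinib (horizontal axis); points are samples and bars are means. The 3 PH797804 samples, between 1543 and 2536, and the 3 Afatinib samples, between 2468 and 2810, sit below all DMSO samples.

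*Zfp36l1*, which encodes the TTP relative also called BRF1, was raised by 1 of the 58 CKIs and lowered by 1, beside 2.52% of tests higher and 1.65% lower over all genes and CKIs. The *Zfp36l1* value (mm10, chr12:80107760-80113013, minus strand) was lowest at 260, 306 in the median and highest at 367 in DMSO. Under Afatinib it was 91, 97 and 118, far below every DMSO sample, with a log2 fold change of -1.59 (SE 0.21; limma, adjusted p = 1.78e-09). Under Omipalisib, an inhibitor of PI3K and mTOR, it was 622, 616 and 401, above every DMSO sample, as were those of 14.8% of all genes, with a log2 fold change of 0.80 (SE 0.21; limma, adjusted p = 0.00169). Afatinib had the lowest *Zfp36l1* mean of the 59 conditions and its range did not overlap that of Volasertib, the next, at 165 to 253. Omipalisib had the highest, but its range overlapped that of Midostaurin, the next, at 347 to 580.

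*Zfp36l1* did not pass the test in the p38 class. Its mean was 304 ± 68.2 (SD, n = 12) under these inhibitors against 310 ± 41.9 (SD, n = 6) in DMSO, a log2 difference of -0.05 (limma, adjusted p = 0.883). PH797804, under which *Zfp36* fell, had *Zfp36l1* values of 303, 322 and 275. Of the 12 p38 samples, 3 lay below the DMSO range, at 220 and 213 under Losmapimod and 244 under Talmapimod, 3 lay above it, of Talmapimod and VX702, and 6 lay within it. In the JAK inhibitor class the log2 difference of *Zfp36l1* from DMSO was 0.23 (limma, adjusted p = 0.247), with single CKIs between -0.29 for BMS911543 and 0.47 for Ruxolitinib. In the PI3K and mTOR class *Zfp36l1* was 0.19 higher than under the other CKIs (SE 0.08; limma, adjusted p = 0.0432), a call that was lost without Omipalisib (log2 0.04) or without BGT226 (log2 0.12) in the class, and with AZD8186 and TG100115 added to it (log2 0.13, limma adjusted p = 0.145). This call was also lost without the filter on low values (limma adjusted p = 0.0827).

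*Zfp36l2*, the least abundant member, had the largest rises. The *Zfp36l2* value (mm10, chr17:84183924-84187947, minus strand) was lowest at 8, 20 in the median and highest at 25 in DMSO. Under BGT226 it was 337, 282 and 176, and under Omipalisib 170, 221 and 95. PF04691502, another inhibitor of PI3K and mTOR, gave 85, 72 and 80. Every sample of these 3 CKIs lay above every DMSO sample, which held for 19.5%, 14.8% and 9.05% of all genes under BGT226, Omipalisib and PF04691502. The log2 fold changes of *Zfp36l2*, which a pseudocount of 1 makes smaller for such low values, were 3.79 for BGT226, 3.05 for Omipalisib and 2.11 for PF04691502, each with an SE of 0.35 (limma, adjusted p = 8.06e-18, 1.07e-12 and 2.65e-06).

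In all, 7 of the 58 CKIs raised *Zfp36l2* and 0 lowered it (limma; 31 CKIs had an unadjusted p under 0.05 in either direction). The log2 fold change of *Zfp36l2* was above 0 under 54 of the 58 CKIs, with a median of 0.71, and DMSO stood at place 53 of the 59 *Zfp36l2* means. Omipalisib changed 3 of the 5 genes against 25.7% of all genes, and PF04691502 1 of 5 against 13.1%. Apitolisib, with *Zfp36l2* values of 43, 30 and 35, changed 1 of 5 against 15.9%. AZD2014, an mTOR inhibitor, gave 28, 32 and 35 and did not pass (log2 0.81, limma adjusted p = 0.0883), although its samples too lay above those of DMSO, as for 6.72% of all genes. In all, 16 CKIs had every *Zfp36l2* sample above those of DMSO, and 7 of the 16 passed the test. The share of all genes with every sample above DMSO lay between 0.275% under Neratinib and 19.5% under BGT226. BGT226 and Omipalisib, first and next in the order of *Zfp36l2* means, overlapped, and both stood clear of PF04691502.

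As a class, the 5 PI3K and mTOR inhibitors had a *Zfp36l2* mean of 115 ± 99.7 (SD, n = 15), against 18.8 ± 7.22 (SD, n = 6) in DMSO and 29.7 ± 12.9 (SD, n = 159) under the other CKIs. The log2 difference was 2.15 from DMSO (SE 0.24; limma, adjusted p = 3.93e-13) and 1.54 from the other CKIs (SE 0.13; limma, adjusted p = 1.05e-19). These differences were 1.74 and 1.13 without BGT226 in the class and still passed. AZD8186 and TG100115, which are selective for some PI3K isoforms, were not part of the class. Their *Zfp36l2* values were 15, 35 and 29 under AZD8186 and 51, 45 and 36 under TG100115, and neither passed (log2 0.48 and 1.27, limma adjusted p = 0.868 and 0.0559). With both in the class, an alternative chosen after seeing the data, the *Zfp36l2* differences were 1.78 from DMSO and 1.19 from the other CKIs and passed.

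Outside this class, *Zfp36l2* rose under Filgotinib to 35, 52 and 43 (log2 1.24, SE 0.35; limma, adjusted p = 0.00534). It also rose under Lenvatinib, to 38, 54 and 52, and under Mubritinib, to 65, 75 and 29. All samples of these 3 CKIs lay above the DMSO samples, which held for 7.05% of all genes under Filgotinib, 12% under Lenvatinib and 2.51% under Mubritinib. The log2 fold changes were 1.39 for Lenvatinib and 1.52 for Mubritinib (limma, adjusted p = 0.0215 and 0.00426); both CKIs, like Apitolisib, are named after their values were seen. Lenvatinib changed 1 of the 5 genes against 12.2% of all genes, and Mubritinib 1 of 5 against 1.84%. The calls of Apitolisib, Lenvatinib and Mubritinib depended on single samples. That of Apitolisib was lost without any 1 of its samples (limma adjusted p between 0.0685 and 0.15), without DMSO set 1 replicate 2 (0.0657), DMSO set 1 replicate 3 (0.0623) or DMSO set 2 replicate 2 (0.16). The Apitolisib call was also lost without the filter on low values (limma adjusted p = 0.0807) and with a pseudocount of 10 (0.0504). That of Lenvatinib was lost without Lenvatinib replicate 2 (limma adjusted p = 0.0514), its replicate 3 (0.179) or DMSO set 2 replicate 2 (0.0674), and that of Mubritinib without Mubritinib replicate 1 (0.0881) or replicate 2 (0.197). Transcripts of the mitochondrial genome made up 2.93% of the normalized values under Apitolisib and 2.77% under Lenvatinib, against 1.15% in DMSO, and with this share and the replicate number as covariates *Zfp36l2* did not pass in either (log2 0.63 and 1.07, limma adjusted p = 0.294 and 0.134).

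At the other end, BMS911543, a JAK inhibitor, had the lowest *Zfp36l2* mean of the 59 conditions, with values of 13, 14 and 6 (log2 -0.70, limma adjusted p = 0.251). The MEK and ERK inhibitors had a *Zfp36l2* mean of 20.3 ± 7.19 (SD, n = 15), close to DMSO but 0.67 lower on the log2 scale than under the other CKIs (SE 0.13; limma, adjusted p = 0.000237). The call against the other CKIs was lost in at least 1 of the fits that left out samples of 1 replicate number. *Zfp36l2* was the 1 gene of the 5 called in that comparison, against 5.31% of all genes, and 0 of the 5 genes were called in the MEK and ERK class against DMSO, where 0.385% of all genes were (limma; 0 of the 5 had an unadjusted p under 0.05). *Zfp36l2* did not pass in the p38 class against DMSO (log2 0.28, limma adjusted p = 0.548). Nor did it in the JAK class (log2 0.55, limma adjusted p = 0.0955), where it passed without DMSO set 2 replicate 1 (log2 0.65, limma adjusted p = 0.048).

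**Figure D2:**
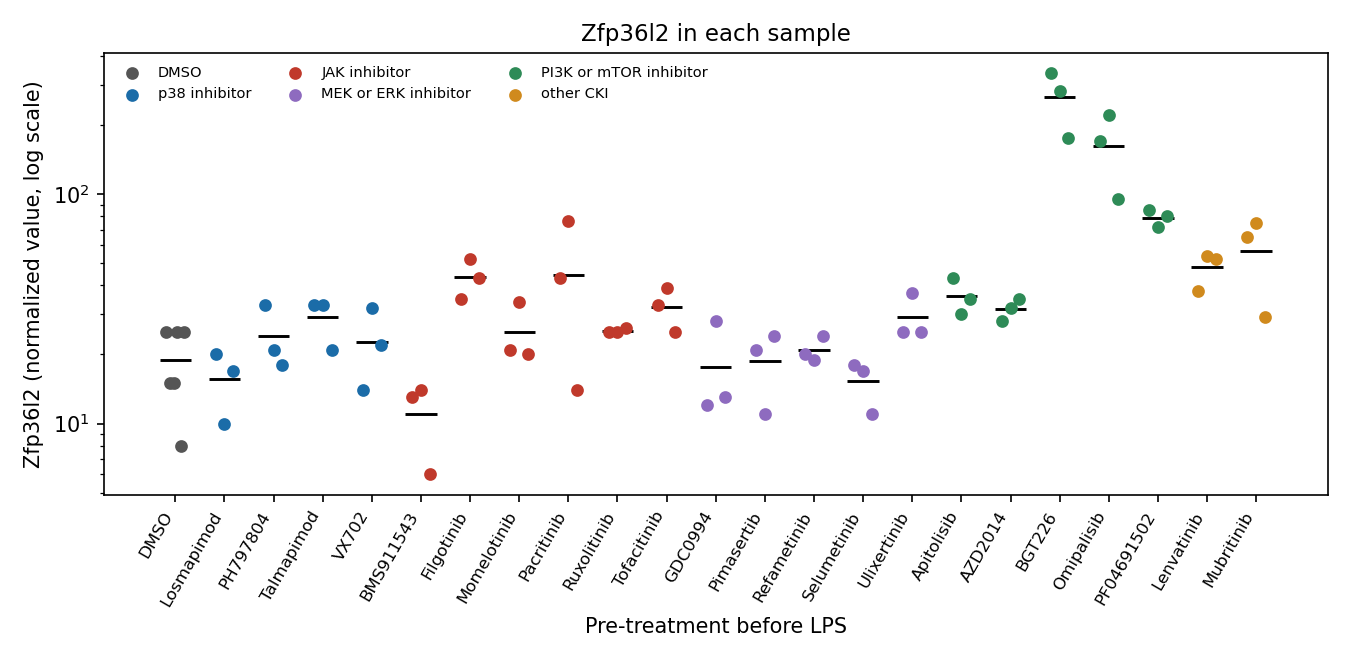
Normalized *Zfp36l2* value (vertical axis, log scale) of each sample in DMSO, the 4 classes of CKIs, Lenvatinib and Mubritinib (horizontal axis); points are samples and bars are means. The samples of BGT226, Omipalisib and PF04691502, between 72 and 337, stand above the 6 DMSO samples, between 8 and 25.

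*Zc3h12a*, the gene of Regnase-1, rose in the JAK inhibitor class. The *Zc3h12a* value (mm10, chr4:125118414-125127881, minus strand) was lowest at 784, 1214 in the median and highest at 1331 in DMSO. Under Tofacitinib it was 1656, 1958 and 1346, above every DMSO sample as for 12.5% of all genes (log2 0.55, SE 0.16; limma, adjusted p = 0.0255). Tofacitinib changed 1 of the 5 genes against 9.88% of all genes. The means of the other JAK inhibitors were 1334 for BMS911543, 1362 for Ruxolitinib, 1468 for Filgotinib, 1471 for Momelotinib and 1514 for Pacritinib, and none of these passed the test alone, although Filgotinib did without DMSO set 1 replicate 1 (log2 0.44, limma adjusted p = 0.0425) or DMSO set 2 replicate 1 (log2 0.43, limma adjusted p = 0.0428). All 6 means lay above that of DMSO, 1137 ± 211 (SD, n = 6), as did those of most CKIs: the log2 fold change of *Zc3h12a* was above 0 under 50 of the 58 CKIs, with a median of 0.20, and DMSO stood at place 51 of the 59 *Zc3h12a* means.

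Over the class, *Zc3h12a* was 1467 ± 219 (SD, n = 18), with a log2 difference of 0.38 from DMSO (SE 0.11; limma, adjusted p = 0.0151) and of 0.23 from the other CKIs (SE 0.06; limma, adjusted p = 0.00315). *Zc3h12a* was the 1 gene of the 5 called for JAK inhibitors against DMSO, where 11.1% of all genes were called, and *Zc3h12a* and *Zfp36* were the 2 of 5 called against the other CKIs, where 5.72% were. Both *Zc3h12a* differences passed without any 1 of the 6 CKIs in the class. The difference from the other CKIs was lost in at least 1 of the fits that left out samples of 1 replicate number. The difference from DMSO was lost without DMSO set 1 replicate 3, the lowest DMSO sample (log2 0.27, limma adjusted p = 0.105), and with DMSO set 1 alone (log2 0.42, limma adjusted p = 0.132) or DMSO set 2 alone (log2 0.33, limma adjusted p = 0.164) as the reference. The Tofacitinib call was lost without Tofacitinib replicate 1 (limma adjusted p = 0.089), its replicate 2 (0.219), DMSO set 1 replicate 3 (0.0753) or DMSO set 2 replicate 2 (0.0523). Transcripts of the mitochondrial genome made up 2.64% of the normalized values under Tofacitinib and 1.15% in DMSO, and with this share and the replicate number as covariates *Zc3h12a* passed (log2 0.58, limma adjusted p = 0.0362). In the rest of the class this share was 2.83% under Pacritinib, 1.84% under Filgotinib, 1.15% under Momelotinib, 1.14% under BMS911543 and 1.09% under Ruxolitinib.

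Midostaurin, an inhibitor of FLT3 and protein kinase C, gave the highest *Zc3h12a* values, 1895, 2027 and 1852, all above the DMSO samples as for 5.65% of all genes (log2 0.78, SE 0.16; limma, adjusted p = 0.000258). It changed 1 of the 5 genes, against 4.56% of all genes. Afatinib gave the lowest *Zc3h12a* mean, with values of 439, 490 and 846 (log2 -0.98, SE 0.16; limma, adjusted p = 1.17e-06), of which the highest overlapped the lowest DMSO sample. Midostaurin's range overlapped that of Tofacitinib, the next in order. The p38 inhibitors had a *Zc3h12a* mean of 1242 ± 196 (SD, n = 12), a log2 difference of 0.13 from DMSO (limma, adjusted p = 0.526), with VX702 the highest of them at 1471 and PH797804 the lowest at 1065.

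*Rc3h1*, the gene of Roquin-1, was raised by 3 CKIs, and its values spread widely between the samples of a condition. The *Rc3h1* value (mm10, chr1:160906411-160974976, plus strand) was lowest at 133, 330 in the median and 394 in the sample next to the highest in DMSO, a wide spread for vehicle samples. The lowest were replicate 3 of DMSO set 1, at 133, and replicate 3 of DMSO set 2, at 200. Omipalisib gave 530, 570 and 480, above every DMSO sample, again as for 14.8% of all genes, with a log2 fold change of 0.92 (SE 0.26; limma, adjusted p = 0.00479). BGT226 gave 510, 499 and 355 and Lapatinib, an inhibitor of EGFR and ERBB2, gave 471, 538 and 343, both overlapping DMSO (log2 0.69 and 0.68; limma, adjusted p = 0.0331 and 0.0485). Lapatinib changed 1 of the 5 genes, against 23.3% of all genes. The log2 fold change of *Rc3h1* was above 0 under 46 of the 58 CKIs, and DMSO stood at place 42 of the 59 *Rc3h1* means. Of the 58 CKIs, 0 lowered *Rc3h1* (limma; 7 had an unadjusted p under 0.05 in either direction), and its lowest mean was 211 under SNS314, whose range overlapped that of PH797804, the next. At the other end, the ranges of Omipalisib and BGT226 overlapped. Tofacitinib, with *Rc3h1* values of 494, 483 and 367, did not pass (log2 0.68, limma adjusted p = 0.0692) but did without DMSO set 1 replicate 1 (log2 0.75, limma adjusted p = 0.0486) or DMSO set 2 replicate 1 (log2 0.78, limma adjusted p = 0.0305).

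The calls for BGT226 and Lapatinib were not stable to the loss of single samples. For BGT226, *Rc3h1* did not pass without BGT226 replicate 1 (limma adjusted p = 0.155), its replicate 2 (0.128), DMSO set 1 replicate 3 (0.171) or DMSO set 2 replicate 3 (0.0839). For Lapatinib it did not pass without Lapatinib replicate 1 (limma adjusted p = 0.15), replicate 2 (0.203) or replicate 3 (0.0516), nor without DMSO set 1 replicate 3 (0.187), DMSO set 2 replicate 2 (0.0746) or DMSO set 2 replicate 3 (0.105). Transcripts encoded by the mitochondrial genome made up 2.76% of the normalized values under Lapatinib and 1.15% in DMSO, and with their share and the replicate number as covariates the log2 fold change of *Rc3h1* was 0.31 (limma, adjusted p = 0.241).

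In the PI3K and mTOR class *Rc3h1* was 418 ± 102 (SD, n = 15) against 297 ± 109 (SD, n = 6) in DMSO, a log2 difference of 0.55 (SE 0.18; limma, adjusted p = 0.012), and 0.35 higher than under the other CKIs (SE 0.10; limma, adjusted p = 0.00297). The first was lost without DMSO set 1 replicate 3 (log2 0.34, limma adjusted p = 0.157) or DMSO set 2 replicate 3 (log2 0.45, limma adjusted p = 0.0583) and with DMSO set 1 or DMSO set 2 alone (limma adjusted p = 0.0546 and 0.112), and the second without Omipalisib in the class (limma adjusted p = 0.0685). Mitochondrial transcripts made up 2.93% of the normalized values under Apitolisib, 2.69% under PF04691502, 1.81% under Omipalisib, 1.57% under BGT226 and 1.16% under AZD2014, against 1.15% in DMSO. With this share and the replicate number as covariates, the *Rc3h1* difference from DMSO was 0.35 and passed (limma adjusted p = 0.0119). In this class 3 of the 5 genes, *Zfp36*, *Zfp36l2* and *Rc3h1*, were called against DMSO, where 36.8% of all genes were, and 4 of 5 against the other CKIs, where 41.5% were. With so large a share of all genes called, these counts are no result about the 5 genes. *Rc3h1* did not pass the test in the JAK class (log2 0.25, limma adjusted p = 0.329) or the p38 class (log2 -0.01, limma adjusted p = 0.985) against DMSO.

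Over the 290 tests of 5 genes in 58 CKIs, 15 were higher and 4 lower, or 5.17% and 1.38%. Over all genes and CKIs, 2.52% of tests were higher and 1.65% lower, and 7 of the 15 higher calls were those of *Zfp36l2*. These shares moved with single DMSO samples. The 18612 higher and 12195 lower calls over all genes were 9571 and 7878 without DMSO set 2 replicate 2, and 29088 and 15816 without DMSO set 2 replicate 1. Of all calls over all genes, 60.4% were higher, and after a further scaling of each sample by the median of ratios 40.8% were. That scaling moved the median log2 fold change of all genes by -0.198 under BGT226, -0.174 under Lenvatinib, -0.165 under Tofacitinib, -0.115 under Apitolisib, -0.111 under Lapatinib, -0.104 under Omipalisib and -0.103 under PF04691502, and turned the direction of none of the members' calls. It ended those of *Zfp36* and *Rc3h1* under BGT226 (log2 0.47 and 0.50), *Zc3h12a* under Tofacitinib (log2 0.38), *Zfp36l2* under Apitolisib (log2 0.87) and *Rc3h1* under Lapatinib (log2 0.56), and in the PI3K and mTOR class those of *Zfp36* against DMSO (log2 0.25) and *Zfp36l1* against the other CKIs (log2 0.15). *Zfp36* under Losmapimod (log2 -0.94, limma adjusted p = 0.0244) and *Zc3h12a* under Filgotinib (log2 0.43, limma adjusted p = 0.0379) newly passed, as did, against the other CKIs, *Zfp36l2* in the p38 class (log2 -0.50, limma adjusted p = 0.0449) and *Zc3h12a* in the MEK and ERK class (log2 -0.20, limma adjusted p = 0.029). By limma's F test over the 59 conditions, 4 of the 5 genes varied between conditions, as did 48.6% of all genes. *Zfp36l2* had an F of 6.13, *Zfp36* of 4.49, *Zfp36l1* of 4.38 and *Zc3h12a* of 3.42, while *Rc3h1* had 1.46 and did not pass (limma, adjusted p = 0.0755). The spread of *Zfp36l2* within conditions was 0.49 on the log2 scale (SD) and that of *Rc3h1* 0.38, both above the median of 0.31 over all genes, and that of *Zc3h12a* was lower, at 0.22. None of the 5 genes passed the test between the 2 DMSO sets, with log2 differences between -0.12 and 0.11, and 0 of all genes were called between them (limma; 310 had an unadjusted p under 0.05).

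Several calls in single CKIs also depended on the reference and the fit. With only the compared conditions in the fit, *Zfp36* under BGT226 and Filgotinib, *Zc3h12a* under Tofacitinib, *Rc3h1* under BGT226, Lapatinib and Omipalisib, and *Zfp36l2* under Apitolisib, Lenvatinib and Mubritinib did not pass (limma adjusted p between 0.0646 and 0.269). *Zfp36* under Filgotinib did not pass with DMSO set 1 alone as the reference (limma adjusted p = 0.0838). *Zc3h12a* under Tofacitinib, *Rc3h1* under BGT226 and Lapatinib, and *Zfp36l2* under Apitolisib and Lenvatinib passed with neither DMSO set alone (limma adjusted p between 0.0515 and 0.129).

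**Figure D3:**
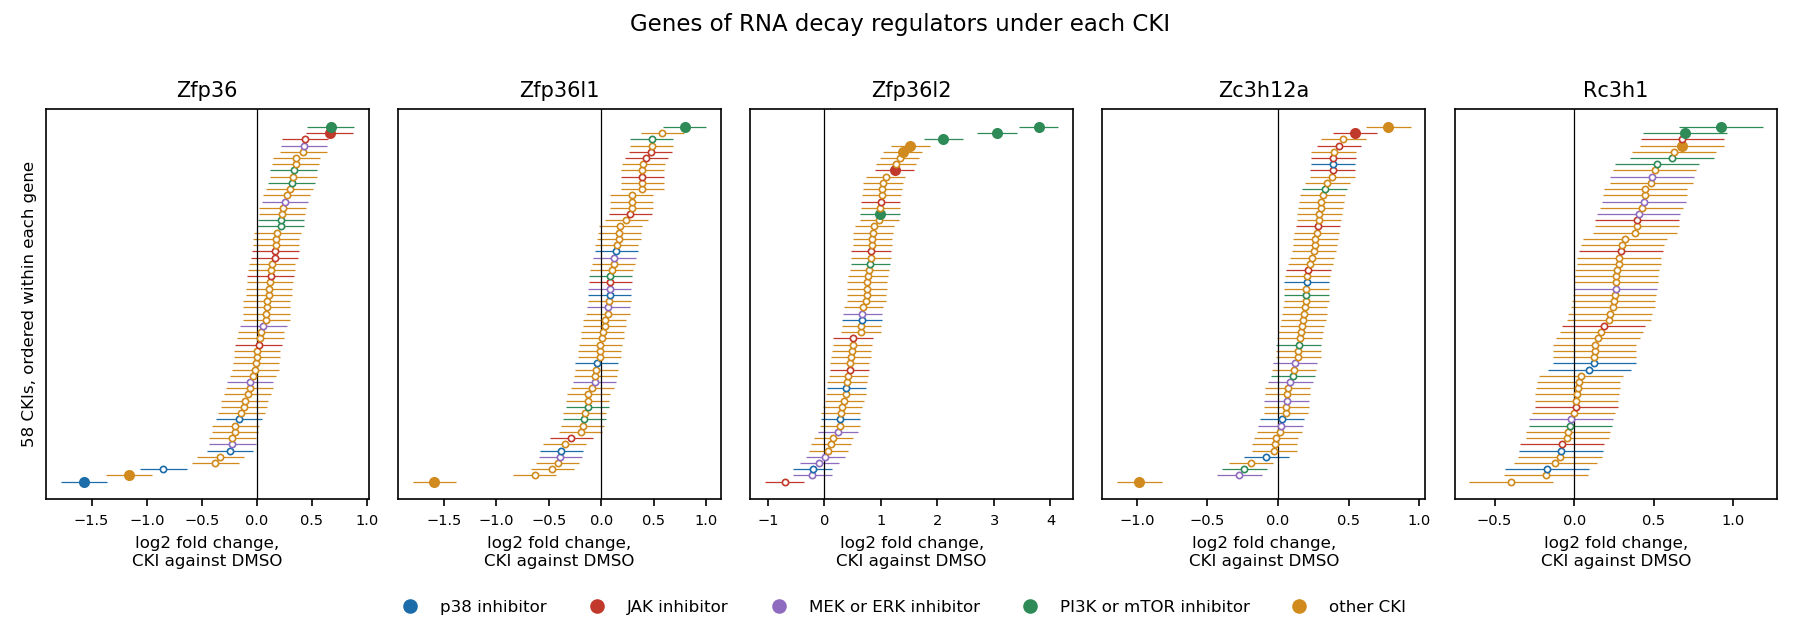
Log2 fold change of each gene under each of the 58 CKIs against DMSO (horizontal axis, bars are 1 SE), with CKIs ordered within each gene (vertical axis); large filled points passed the test. *Zfp36* fell most under PH797804 (-1.57) and *Zfp36l2* rose most under BGT226 (3.79).

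The mRNAs that TTP is known to bind moved in both directions under the p38 inhibitors. Of 11 tested genes of this list, 1 was higher and 2 were lower in the p38 class against DMSO, beside 1.59% of all genes called, with a median log2 difference of -0.28 beside 0.08 over all genes. Against the other CKIs, 1 was higher and 4 were lower, beside 1.47% of all genes called, with a median of -0.32 beside 0.01. *Il10*, the anti-inflammatory cytokine, was 799 ± 501 (SD, n = 12) against 1373 ± 614 (SD, n = 162) under the other CKIs (log2 -0.89, SE 0.18; limma, adjusted p = 0.00104). *Ptgs2*, the inducible cyclooxygenase, fell by 0.79 against DMSO (SE 0.23; limma, adjusted p = 0.0479). *Dusp1*, a phosphatase that turns off p38, was 9535 ± 4969 (SD, n = 12) against 18448 ± 7980 (SD, n = 6) in DMSO (log2 -0.99, limma adjusted p = 0.043). Under the other CKIs it was 12886 ± 5947 (SD, n = 162), and the p38 class did not pass against them (log2 -0.37, limma adjusted p = 0.387), while *Dusp1* was also lower in the JAK class against DMSO (log2 -0.90, limma adjusted p = 0.0193). *Ccl2*, a monocyte chemokine, was the gene that rose, from 7693 ± 514 (SD, n = 6) in DMSO to 11655 ± 3595 (SD, n = 12) (log2 0.54, limma adjusted p = 1.07e-05). *Tnf*, the best known TTP target, did not pass (log2 0.15, limma adjusted p = 0.753).

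Under PH797804 alone, 1 of the 11 rose and 2 fell, beside 1.98% of all genes called, with a median log2 fold change of -0.45 beside 0.08 over all genes. *Dusp1* fell by 2.01 on the log2 scale (SE 0.40; limma, adjusted p = 0.000371) and *Il10* by 1.70 (SE 0.44; limma, adjusted p = 0.0141), while *Ccl2* rose by 1.13 (SE 0.12; limma, adjusted p = 2.57e-12). Under Afatinib, the other CKI that lowered *Zfp36*, 2 of the 11 were higher and 3 lower, beside 21.9% of all genes called, with a median of -0.06 beside 0.03 over all genes. Afatinib had *Dusp1* at 1361 ± 150 (SD, n = 3), a log2 fold change of -3.62 (limma, adjusted p = 2.85e-12), and *Ccl2* at 15754 ± 978 (SD, n = 3), one of 1.03 (limma, adjusted p = 5.57e-11). Both CKIs were compared with the same DMSO samples.

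In the JAK class, 2 of the 11 TTP targets were higher and 1 lower against DMSO, beside 11.1% of all genes called, with a median of 0.30 beside 0.06 over all genes. *Cxcl1*, a neutrophil chemokine that is also a Regnase-1 target, was 1427 ± 468 (SD, n = 18) against 679 ± 69.1 (SD, n = 6) in DMSO (log2 1.00, SE 0.13; limma, adjusted p = 1.11e-08). *Cxcl1* was highest in the PI3K and mTOR class, at 1471 ± 449 (SD, n = 15; log2 1.06, limma adjusted p = 5.68e-11). *Dusp1* was lower there by 1.37 (SE 0.27; limma, adjusted p = 2.92e-05), and *Ccl3*, a chemokine, higher by 0.84 (SE 0.31; limma, adjusted p = 0.0242), both against DMSO. Of 11 TTP targets, 4 were higher and 1 lower in that class against DMSO, beside 36.8% of all genes called, and 1, *Cxcl2*, was called in the MEK and ERK class, where it was lower, beside 0.385% of all genes.

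Of 10 tested stem-loop targets of Regnase-1 and Roquin-1, 2 were called in the JAK class against DMSO, both higher, beside 11.1% of all genes called, with a median of 0.23 beside 0.06 over all genes. In the p38 class 1 was called, *Ptgs2*, which was lower, beside 1.59% of all genes, and in the PI3K and mTOR class 4 were called, all higher, beside 36.8% of all genes. *Il12b*, a subunit of IL-12 and IL-23, was 2614 ± 728 (SD, n = 15) there against 1625 ± 277 (SD, n = 6) in DMSO (log2 0.65, limma adjusted p = 0.00609). *Cxcl2* was lower in the MEK and ERK class than under the other CKIs by 0.75 on the log2 scale (SE 0.06; limma, adjusted p = 6.83e-18).

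Of the 10 genes of kinases, phosphatase and protease that act on the 5 proteins, 1 was called in the p38 class against DMSO, *Dusp1*, which was lower, beside 1.59% of all genes. In the JAK class 3 were called, all of them lower, beside 11.1% of all genes. *Mapkapk2*, the gene of MK2, was 1211 ± 239 (SD, n = 12) under p38 inhibitors and 1517 ± 303 (SD, n = 162) under the other CKIs (log2 -0.32, SE 0.07; limma, adjusted p = 0.00417). *Mapk11*, the gene of p38 beta, was lower in the JAK class by 0.61 (SE 0.17; limma, adjusted p = 0.0152), and *Irak1* was higher in the PI3K and mTOR class by 0.54 (SE 0.21; limma, adjusted p = 0.033), both against DMSO. *Mapk14*, which encodes p38 alpha, the designated target of the 4 p38 inhibitors, did not pass the test under them (log2 0.12, limma adjusted p = 0.694).

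Interferon-induced genes depend on JAK signaling. Of 10 such genes, 3 were lower in the JAK class against DMSO, beside 11.1% of all genes called, with a median of -0.43 beside 0.06 over all genes. Against the other CKIs 6 were lower, beside 5.72% of all genes called. Against DMSO, the median was -0.83 under Momelotinib, -0.81 under Filgotinib, -0.51 under Ruxolitinib, -0.22 under Pacritinib, -0.06 under Tofacitinib and 0.08 under BMS911543. Filgotinib lowered 5 of the 10, Momelotinib 1 and BMS911543 1, beside 20.7%, 0.787% and 8.55% of all genes called. Pacritinib, Ruxolitinib and Tofacitinib lowered 0, beside 0.173%, 0% and 9.88% of all genes called. *Rsad2*, the antiviral gene of viperin, was lower in the JAK class than in DMSO by 0.69 (SE 0.19; limma, adjusted p = 0.015). *Socs1*, a feedback inhibitor of JAKs, was lower in the PI3K and mTOR class than in DMSO by 1.90 (SE 0.38, limma adjusted p = 3.39e-05). It was 784 ± 487 (SD, n = 15) in the class against 2688 ± 1911 (SD, n = 6) in DMSO. The DMSO samples spread from 618 to 5735, and the *Socs1* mean over all samples was 1358. *Ifit2* was 0.51 higher in the MEK and ERK class than under the other CKIs (limma, adjusted p = 0.0113). In that comparison of the MEK and ERK class 5 of the 10 were higher, beside 5.31% of all genes called. Of 8 tested genes that ERK signaling induces, 0 were called in the MEK and ERK class against DMSO (limma; 3 had an unadjusted p under 0.05), beside 0.385% of all genes called. Their median was -0.27 beside 0.08 over all genes. Of the 8, 3 were lower in this class than under the other CKIs, beside 5.31% of all genes called. *Egr1*, an immediate early gene, was among them, at 50.2 ± 31.8 (SD, n = 15) against 94.2 ± 64.1 (SD, n = 159; log2 -1.10, limma adjusted p = 3.43e-05). In the PI3K and mTOR class, 4 of the 8 were higher than in DMSO, beside 36.8% of all genes called. *Dusp6*, *Spry2* and *Dusp4* were higher there by 1.29, 0.93 and 0.89 (limma, adjusted p = 2.12e-09, 0.0354 and 0.00665).

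TTP and Roquin-1 recruit enzymes that shorten the polyA tail and remove the cap of an mRNA. Of 19 deadenylation genes, 1 was higher in the JAK class against DMSO, beside 11.1% of all genes called, and 9 were higher and 1 lower in the PI3K and mTOR class, beside 36.8% of all genes called. Among the single CKIs described above and outside that class, Lapatinib raised 5 of the 19, Tofacitinib 3 and Lenvatinib 2, beside 23.3%, 9.88% and 12.2% of all genes called. Afatinib and Filgotinib each raised 1 and lowered 2, and BMS911543 lowered 1, beside 21.9%, 20.7% and 8.55% of all genes. In the PI3K and mTOR class *Btg1* and *Btg2*, which bind the deadenylase complex, rose by 1.00 (SE 0.27; limma, adjusted p = 0.0019) and 0.76 (SE 0.18; limma, adjusted p = 0.000512), *Tob1* by 0.86 (limma, adjusted p = 0.0119) and *Pan3* by 0.62 (limma, adjusted p = 0.0209). Of 22 tested genes of decapping and exonucleases, 4 were higher and 4 lower in that class, beside the same share of all genes, among them *Pnrc1* (log2 0.72), *Ddx6* (log2 0.70), *Dcp1b* (log2 0.66) and *Exosc3* (log2 -0.51), with limma adjusted p of 7.79e-05, 1.16e-06, 0.000134 and 0.00842. Of 14 tested regulators of AU-rich or stem-loop RNAs, 5 were called there, all of them higher, against the same share of all genes.

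In the JAK class against DMSO, 2 of these 14 regulators were higher and 1 was lower, beside 11.1% of all genes called, with a median of 0.22 beside 0.06 over all genes. The lower one was *Arid5a*, which encodes a protein that stabilises stem-loop mRNAs such as *Il6*. It was 1535 ± 474 (SD, n = 18) in the JAK class against 2750 ± 509 (SD, n = 6) in DMSO (log2 -0.89, SE 0.13; limma, adjusted p = 2.5e-07). Relatives of *Zc3h12a* rose in the PI3K and mTOR class, *Zc3h12d* by 1.02 (SE 0.18; limma, adjusted p = 2.75e-06) and *Zc3h12c* by 0.68 (SE 0.19; limma, adjusted p = 0.00297), while *Zc3h12a* itself did not (log2 0.11, limma adjusted p = 0.435). *Pcbp2* rose there by 0.59 (limma, adjusted p = 0.00018).

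The genes most like each member over the 59 condition means were different for the 5 genes. *Zfp36* had its highest Pearson correlations with *Ccr7* (r = 0.81), *Il10* (r = 0.79) and *Cttnbp2nl* (r = 0.75), and *Zfp36l1* with *Icosl* (r = 0.77), *Gmeb2* (r = 0.75) and *Tgfbr1* (r = 0.75). *Zfp36l2* was nearest to *Zfand2a* (r = 0.86), *Rabgef1* (r = 0.84) and *Hilpda* (r = 0.84), and *Zc3h12a* to *Itpkb* (r = 0.79), *Rbm22* (r = 0.76) and *Kdm6b* (r = 0.74). *Rc3h1* was nearest to *Acbd3*, *Plek* and *Qk*, with r between 0.88 and 0.89. These places moved with the samples: without the samples of 1 replicate number, *Rabgef1* stood as low as place 73, *Kdm6b* 79, *Tgfbr1* 58 and *Acbd3* 37. Among the 5 genes, r lay between 0.04 for *Zfp36l2* with *Zc3h12a* and 0.58 for *Zfp36l2* with *Rc3h1*. By Spearman's measure the order was another, from -0.0123 for *Zfp36l1* with *Rc3h1* to 0.70 for *Zfp36* with *Rc3h1*, and *Zfp36* with *Zfp36l1* had 0.0548 beside a Pearson r of 0.35. These are descriptions over conditions that share replicate numbers and the authors' scaling, and by Spearman's measure *Zfp36* and *Zfp36l2* each had other genes in all 3 places.

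The mRNAs of 4 of the 5 genes themselves carry the AU-rich letters that TTP binds. The nonamer TTATTTATT was searched on the sense strand after the stop codon of the transcript with the longest such stretch (GENCODE M21, GRCm38), and it was found in 831 of 10324 tested genes, or 8.05%. *Zfp36*, *Zfp36l1*, *Zfp36l2* and *Rc3h1* had 1 match each and *Zc3h12a* had 0, which says only that these letters are not in that stretch. The windows are shown because TTP is known to act on its own mRNA, and capitals mark the nonamer.
Zfp36: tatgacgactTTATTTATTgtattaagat
Zfp36l1: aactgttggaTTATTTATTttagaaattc
Zfp36l2: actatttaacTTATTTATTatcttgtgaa
Rc3h1: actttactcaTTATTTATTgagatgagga

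Genes with the nonamer were called lower in the p38 class against DMSO in 2.05% of cases (17 of 831), and genes without it in 0.916% (87 of 9493). Their median log2 differences were 0.05 and 0.07. Under PH797804, 2.53% of genes with the nonamer and 1.34% of those without were lower, and under Afatinib 21.1% and 13.9%. A larger share among genes with the nonamer was also found where *Zfp36* was not lower, with 19.9% and 16.2% under Filgotinib and 0.842% and 0.158% in the MEK and ERK class against DMSO. In the PI3K and mTOR class the shares were 12.9% and 13.1%, and under Losmapimod the 7 genes called lower were all without the nonamer. Under BGT226, which raised *Zfp36*, 5.78% of genes with the nonamer and 6.72% without it were lower, and under Omipalisib 6.38% and 8.99%. The shares called higher were 33.1% and 25.9% under BGT226 and 23.1% and 17.6% under Omipalisib. They were 6.86% and 5.18% under Filgotinib and 7.1% and 9.13% under Afatinib. Of the 179 genes with 2 or more nonamers, 2.79% were lower under PH797804 and 12.3% under Afatinib. This list was made after the data had been seen and was not tested. *Zfp36* was itself 1 of the genes with the nonamer that fell under PH797804.

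The promoter of *Zfp36* is shown because this gene was the member called under p38 inhibitors, and the sequence is that of RefSeq (GRCm38.p6, chr7:28379229-28379478, minus strand, the 250 bases before the start). Capitals mark the letters GCGGGGGCG, the motif of EGR factors, which were searched on both strands and occur in 845 of 32851 promoters, or 2.57%. The letters TGACTCA of AP-1, TGACGT of CRE, CACGTG of the E-box, GTAAACA of FOXO and TATAAA were not in this window.
Zfp36: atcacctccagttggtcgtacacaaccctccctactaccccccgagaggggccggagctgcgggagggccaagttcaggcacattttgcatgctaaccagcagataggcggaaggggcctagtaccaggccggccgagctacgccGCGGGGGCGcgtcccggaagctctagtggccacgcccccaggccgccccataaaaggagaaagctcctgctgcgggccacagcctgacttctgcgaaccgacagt
Of the 5 genes, 4 matched the promoter table by symbol, all but *Zfp36l2*. Among the other promoters, that of *Rc3h1* had 1 AP-1 match, found in 4.46% of promoters, and that of *Zfp36l1* 1 match to TATAAA, found in 12.4%. The letters GGGCGGGG, the motif of SP and KLF factors, were found in 16.1% of promoters, with 3 matches in that of *Rc3h1*, 1 in that of *Zc3h12a* and none in those of *Zfp36* and *Zfp36l1*.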

How the data were processed

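PolyA RNA-seq libraries (SMART-seq2) of 180 BMDM samples were analysed. The authors mapped reads to mm10 with TopHat2 2.1.1, removed blacklisted regions with bedtools 2.29.2 and counted reads per gene; for their own tests they used R 3.6.2 and DESeq2 without its normalization. The deposited values, of the unit score, are gene counts that the authors scaled on invariant genes and rounded to whole numbers, so count models were not used. Their sum per sample was between 9477340 and 12273349, and the original depth is unknown. Genes with a mean of at least 10 were fitted with limma 3.58.1 (R 4.3.3) on log2(value + 1) over all 59 conditions, with a variance trend, and p-values were adjusted by Benjamini-Hochberg within each comparison at a threshold of 0.05. A pseudocount understates the fold change of low genes. Classes were contrasted with DMSO and with the other CKIs, and an F test covered all conditions. Tables were handled with Python 3.11.15 and pandas 2.3.3, and plots drawn with matplotlib 3.10.9. The fit was tested on simulated data.

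CKIs were named if they were p38 or JAK inhibitors or changed a member, up to 3 in a direction where more than 6 did. Up to 4 genes of each list were named by the size of their change in a class comparison, and 3 genes nearest to each member by Pearson correlation. Other genes and CKIs given with values were chosen after their values were seen. The members and lists were chosen with earlier results of these data known. Alternatives changed the pseudocount, filter, scaling, DMSO set, variance trend, samples in the fit, block, covariate, minimum fold change and samples left out. Values of some listed genes are not reported here.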

Additional observations from a re-analysis of the deposited data

Results flagged for a closer look

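Several genes differed between a class of CKIs and the other CKIs by the test of that difference (limma). *Zfp36* differed by -0.80 on the log2 scale in the p38 class, by 0.25 in the JAK class and by 0.35 in the PI3K and mTOR class. *Zfp36l1* differed by 0.19 in the PI3K and mTOR class. *Zfp36l2* differed by -0.67 in the MEK and ERK class and by 1.54 in the PI3K and mTOR class. *Zc3h12a* differed by 0.23 in the JAK class, and *Rc3h1* by 0.35 in the PI3K and mTOR class. No DMSO sample stood apart from the other 5 by Dixon's test in any of the 5 genes.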

How the results depend on the processing

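Of the single values recomputed under the alternatives, 133 no longer passed, 37 newly passed and 17 were counted as turned in direction. The other 2149 kept their side of the threshold. A change of sign was counted as a turn only where a call was involved or the value moved by more than 1 SE. Smaller changes of sign without a call can be among the 2149. Some alternatives were chosen after seeing the data. They left out 1 sample of a CKI or 1 CKI of a class, or added 2 CKIs to the PI3K and mTOR class. Under these, 105 values kept their side of the threshold and 28 no longer passed. Unless stated, the cause was not tested. Other alternatives left out 1 DMSO sample, all samples of 1 replicate number, or the CKI samples of 1 replicate number. Over these, the number of CKIs that raised *Zfp36* was 0 to 2, *Zfp36l1* 0 to 3, *Zfp36l2* 3 to 10, *Zc3h12a* 1 to 4 and *Rc3h1* 0 to 5. The number that lowered *Zfp36* was 2 to 3, *Zfp36l1* 1 to 1 and *Zc3h12a* 1 to 2. Over the same alternatives, members called were 0 to 1 in the p38 class against DMSO, 0 to 2 in the JAK class against DMSO and against the other CKIs, 0 to 1 in the MEK and ERK class against the other CKIs, 1 to 3 and 3 to 5 in the PI3K and mTOR class against DMSO and the other CKIs, and 3 to 5 over the conditions. For comparisons with the other CKIs, which do not use DMSO, the fits without 1 DMSO sample were not counted. Without any 1 DMSO sample, *Zfp36* in the p38 class against DMSO still passed (limma adjusted p at most 0.021).

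With DMSO set 1 alone, 1 CKI raised *Zfp36*, 1 *Zc3h12a* and 1 *Rc3h1*, and 0, 0 and 1 members were called in the p38, JAK and PI3K and mTOR classes against DMSO; with DMSO set 2 alone 1 CKI raised *Zc3h12a* and 1 *Rc3h1*, and the class counts were 0, 0 and 1. With only the compared conditions in the fit, 0 CKIs raised *Zfp36*, 4 *Zfp36l2*, 1 *Zc3h12a* and 0 *Rc3h1*, 0 members were called in the p38 class against DMSO and 2 in the MEK and ERK class against the other CKIs. After rescaling by the median of ratios, 1 CKI raised *Zfp36* and 1 *Rc3h1*, and 2 members were called in the p38 class and 2 in the MEK and ERK class against the other CKIs; a pseudocount of 10 gave 2 in the p38 class. Without the filter 1 CKI raised *Rc3h1*, and 153 genes were called between the DMSO sets. With a minimum log2 fold change of 0.5, 0 members were called in the JAK class against DMSO and 0 against the other CKIs, and 1 in the PI3K and mTOR class against the other CKIs. A filter at a mean of 50 leaves out *Zfp36l2*.

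Replicate numbers were shared by all conditions, but of 174 correlations between same-numbered samples 144 were above 0.1 (mean 0.314, lowest -0.523), and 126 of 174 samples correlated best with their own number, so the pairing is a hint from the data, not the design. With the replicate block, 33945 higher and 22685 lower calls were made over all genes, against 18612 and 12195. CKIs that raised a gene were then 3 for *Zfp36*, 2 for *Zfp36l1*, 12 for *Zfp36l2*, 5 for *Zc3h12a* and 6 for *Rc3h1*, 3 lowered *Zfp36* and 2 *Zfp36l1*, and 2 members were called in the p38 class against the other CKIs, 2 in the JAK class against DMSO, 3 in the JAK class against the other CKIs and 2 in the MEK and ERK class against the other CKIs. Among the results that then newly passed were *Zfp36* under Losmapimod (limma adjusted p = 0.00193), *Zc3h12a* under Filgotinib (0.0332), *Zfp36l1* in the JAK class against the other CKIs (0.0442), and *Zfp36* (0.0359), *Zfp36l2* (0.0444) and *Rc3h1* (0.0147) under Tofacitinib. *Zfp36l2* under AZD2014 (limma adjusted p = 0.0434) and TG100115 (0.022) newly passed as well. With the block and the mitochondrial share, 3 CKIs raised *Zfp36l1* and 4 *Zc3h12a*, and 2 members were called in the p38 and 2 in the MEK and ERK class against the other CKIs.

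The log2 values counted as turned in direction with samples left out were all ones that had not passed. Smaller changes of sign are not listed. Their ranges were -0.37 to 0.0823 for *Zfp36* under Talmapimod, and -0.15 to 0.0111 for *Zfp36l1* in the MEK and ERK class against the other CKIs. *Zfp36l2* ranged from -0.0410 to 0.46 in the p38 class and -0.24 to 0.39 in the MEK and ERK class against DMSO, -0.31 to 0.82 under VX702 and -0.10 to 0.79 under Momelotinib. *Zc3h12a* ranged from -0.0336 to 0.22 in the p38 class and -0.0813 to 0.21 in the PI3K and mTOR class against DMSO, -0.14 to 0.0141 in the latter against the other CKIs, -0.18 to 0.14 under Losmapimod and -0.0169 to 0.42 under BMS911543. *Rc3h1* ranged from -0.23 to 0.19 in the p38 class against DMSO, -0.19 to 0.33 under Talmapimod, -0.52 to 0.32 under VX702 and -0.28 to 0.19 under Ruxolitinib.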
